A study of Mus musculus with 5 samples.

Results

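The genes described here are 8 enzymes and regulators of lipid synthesis, read in single cells of mouse mammary tumours: Acly, Acaca, Fasn, Scd1 and Scd2 of the fatty acid branch, Thrsp, which is known as a regulator of that branch, and Hmgcs1 and Sqle of the cholesterol branch. They were chosen by name as members of these pathways, 8 of the 41028 gene names in the deposited matrices. The tumours came from PyMT mice, in which polyoma virus middle T antigen, a viral oncoprotein, gives rise to mammary carcinomas; the labels give neither the promoter of the transgene nor the number or age of the animals. All 5 libraries were made from digested tumours enriched for viable cells, and none has a tumour-free control. Fresh 10x 1 and fresh 10x 2 were loaded without storage on the droplet system 10x Genomics 3' v2, stored 10x came from a digest kept at 4 °C, labelled 24 h, in which viability had dropped, and BD Rhapsody 1 and BD Rhapsody 2 were made on the microwell system BD Rhapsody. The second of these is titled fresh while its files are named for 24 h, so it entered no comparison of storage or of platform except as a stated alternative. Nothing in the labels says that the libraries came from separate mice, so p-values measure the spread between libraries, which may be technical.

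Cells build fatty acids from acetyl-CoA. ATP citrate lyase (Acly) makes cytosolic acetyl-CoA from citrate, acetyl-CoA carboxylase (Acaca) turns it into malonyl-CoA in the committed step, fatty acid synthase (Fasn) assembles palmitate, and the stearoyl-CoA desaturases (Scd1, Scd2) place a double bond into saturated chains. The same acetyl-CoA feeds the mevalonate pathway, in which Hmgcs1 makes HMG-CoA and Sqle oxidises squalene, the entry to the sterol ring. The transcription factors SREBP1 and SREBP2 raise the genes of these branches, and the lactating mammary epithelium is known for very high fatty acid synthesis, which supplies milk fat.

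Of the 8 genes 5 had a promoter window in the RefSeq table (build GRCm38.p6), each from 250 bases before to 50 bases after an annotated transcript start. The Fasn and Acaca windows lie at starts inside the gene bodies given below, and the other 3 at the outer end of the gene. Windows for Scd1, Scd2 and Sqle are not used here. The windows of Fasn (chr11:120824498-120824797, minus strand), Thrsp (chr7:97417501-97417800, minus strand) and Hmgcs1 (chr13:119690101-119690400, plus strand) are printed. These genes are examples of a fatty acid enzyme, the regulator and a cholesterol enzyme, and none of them stands for its whole branch. Capitals mark CCAAT, the box bound by the factor NF-Y, on either strand, which on the opposite strand reads ATTGG in the printed line. They also mark TCACCCCAC, a sterol response element of the kind bound by SREBPs.
Fasn: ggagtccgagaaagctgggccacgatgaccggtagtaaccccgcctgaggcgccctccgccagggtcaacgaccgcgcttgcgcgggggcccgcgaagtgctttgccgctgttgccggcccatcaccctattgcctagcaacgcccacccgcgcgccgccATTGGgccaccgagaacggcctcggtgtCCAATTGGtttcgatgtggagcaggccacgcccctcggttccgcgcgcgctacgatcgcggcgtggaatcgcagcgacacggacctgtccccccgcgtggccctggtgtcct
Thrsp: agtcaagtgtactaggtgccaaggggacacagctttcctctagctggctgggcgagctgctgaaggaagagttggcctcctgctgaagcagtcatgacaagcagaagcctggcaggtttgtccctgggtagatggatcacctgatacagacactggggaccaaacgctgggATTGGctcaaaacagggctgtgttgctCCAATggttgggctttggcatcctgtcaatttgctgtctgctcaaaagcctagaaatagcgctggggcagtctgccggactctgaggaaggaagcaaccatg
Hmgcs1: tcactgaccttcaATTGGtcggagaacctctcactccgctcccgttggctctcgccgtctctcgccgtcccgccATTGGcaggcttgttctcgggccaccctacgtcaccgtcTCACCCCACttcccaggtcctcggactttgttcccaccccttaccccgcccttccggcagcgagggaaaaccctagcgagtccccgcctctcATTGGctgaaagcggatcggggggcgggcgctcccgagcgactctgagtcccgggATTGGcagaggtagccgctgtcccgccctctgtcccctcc

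The Fasn window held 3 matches to CCAAT on either strand, 2 of them overlapping in CCAATTGG. Hmgcs1 held 4 matches, Thrsp held 2, Acly held 1 and Acaca held 0, and 37.4% of all 32851 promoters in the table held at least 1. TCACCCCAC was found in the Hmgcs1 window alone among the 5, and in 0.551% of all promoters on either strand. The GC box GGGCGG had 4 matches in the Acly window and 3 in the Hmgcs1 window, against 35.7% of all promoters with a match. The E-box CACGTG, which reads the same on both strands, was in none of the 5 windows and in 7.15% of all. These matches describe letters in the windows and were not tested for binding. The gene bodies lie at chr11:100476352-100528000 (Acly), chr11:84129635-84401651 (Acaca), chr11:120805958-120825166 (Fasn), chr19:44394450-44407709 (Scd1), chr19:44293676-44306864 (Scd2), chr7:97412933-97417550 (Thrsp), chr13:119690351-119708260 (Hmgcs1) and chr15:59315092-59331193 (Sqle) in the same build.

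The libraries held 29166129 to 59957945 unique molecular identifiers (UMIs, counts of captured RNA molecules), and 15958 cells in all, with medians of 8926 to 12474 UMIs per cell. Of 15586 cells that were clustered, 10942 fell into epithelial-like clusters, 66.9% to 72.3% of the cells of each library. Their summed epithelial markers reached 35.5 to 68.0 UMIs per 10000, against 0.901 to 11.3 in the other classes. Cells were clustered without the 8 genes and without the other lipid genes, so none of them defined a class. A cluster of 1267 cells led by mitochondrial transcripts was left unnamed and stayed outside every class, at 2.34% to 12.2% of a library. The median mitochondrial share per cell was 6.14% to 7.17% on 10x and 15.2% to 19.8% on BD Rhapsody. Barcodes shared between libraries numbered 1 to 5 for pairs of 10x libraries and 24 for the BD Rhapsody pair. Of the 10 adipocyte markers, whose cells also make fat, the summed level in epithelial-like cells was 0.115 to 0.309 UMIs per 10000, with Cidec at 0 in all 5 libraries and Adipoq at 0 in 2. In the class comparisons below, Lipe of this list was called higher in epithelial-like than in fibroblast-like (log2 1.40) and T-like cells (2.37). Lipe was called lower than in endothelial-like (-2.03) and macrophage-like cells (-0.80), all by edgeR.

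**Figure D1:**
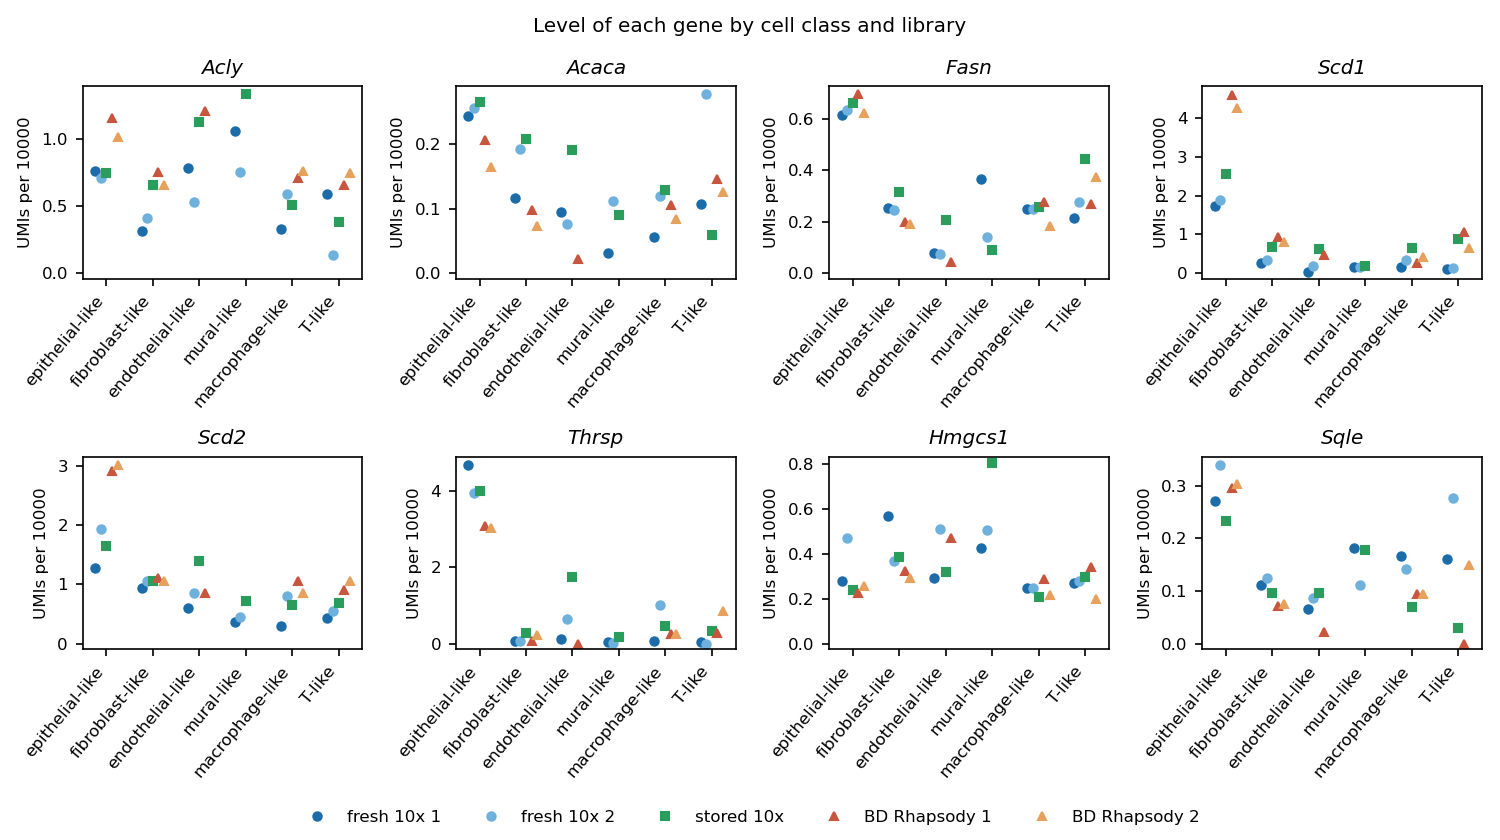
Level of each of the 8 genes (y axis, UMIs per 10000 UMIs of the class) in each cell class (x axis), with 1 point per library. Thrsp in epithelial-like cells lay between 3.04 and 4.68 and in fibroblast-like cells at 0.285 or below, whereas the Hmgcs1 points of the classes overlapped.

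The fatty acid enzymes, Thrsp and Sqle were higher in epithelial-like than in fibroblast-like cells, and Hmgcs1 was lower. With edgeR's quasi-likelihood test on sums per library and class, with the library as a block, 7 of the 8 genes were called higher in epithelial-like cells at an adjusted p under 0.05 and 1 was called lower, where 38.1% of the 12159 genes tested were called higher and 31.6% lower, 69.7% in either direction. The median log2 fold change of the 8 genes was 1.24, against 0.11 for all genes tested. With DESeq2's size factors in edgeR (RLE) the all-gene median was -0.07, so the zero line of this comparison moved by more than 0.1 while the calls of these genes kept their direction.

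Thrsp had 4.68, 3.96, 4.00, 3.09 and 3.04 UMIs per 10000 in epithelial-like cells of fresh 10x 1, fresh 10x 2, stored 10x, BD Rhapsody 1 and BD Rhapsody 2, the order used for all values below. In fibroblast-like cells it had 0.0618, 0.0623, 0.285, 0.0727 and 0.219. The classes did not overlap, and the difference was 31.0-fold (log2 4.96 ± 0.47 SE, adjusted p = 1.34e-10, edgeR). A Thrsp UMI was seen in 56.4% to 70.7% of epithelial-like cells and in 6.11% to 19.2% of fibroblast-like cells, at median depths of 10976 to 14017 and 11652 to 18742 UMIs per cell. Free RNA in the suspension gives some UMIs in every class. Krt8, Krt18, Epcam, Csn3 and Wfdc18, genes of epithelial cells, were summed as background genes. Their summed level in fibroblast-like cells was 1.57% to 10.1% of that in epithelial-like cells, and for Thrsp this share was 1.32% to 7.20%. The Thrsp share exceeded that of the summed background genes in 1 of 5 libraries. In the other 4 it lay below it, and the source of these Thrsp UMIs was not tested.

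Scd1, the desaturase typical of lipogenic tissue, had 1.72, 1.89, 2.56, 4.60 and 4.25 UMIs per 10000 in epithelial-like cells. Its fibroblast-like values were 0.251, 0.348, 0.670, 0.933 and 0.796. The lowest epithelial-like value was above the highest fibroblast-like value, and both classes were higher in the BD Rhapsody libraries than in the fresh 10x libraries. The difference was 5.32-fold (log2 2.41 ± 0.24 SE, adjusted p = 2.87e-10, edgeR). Scd2 had 1.28, 1.94, 1.64, 2.91 and 3.02 UMIs per 10000 in epithelial-like cells, against 0.938, 1.05, 1.06, 1.11 and 1.05 in the fibroblast-like class, a 2.00-fold difference (log2 1.00 ± 0.15 SE, adjusted p = 1.02e-06, edgeR) without overlap. For Scd1 the fibroblast-like level exceeded the share of the background genes in 5 of 5 libraries.

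Fasn had 0.616, 0.634, 0.662, 0.695 and 0.621 UMIs per 10000 in epithelial-like cells, the narrowest spread over libraries among the 8 genes relative to its level, and 0.255, 0.244, 0.316, 0.200 and 0.189 in the fibroblast-like class. The classes stood apart by 2.79-fold (log2 1.48 ± 0.14 SE, adjusted p = 2.47e-10, edgeR). Acaca, with 0.243, 0.255, 0.265, 0.206 and 0.165 against 0.116, 0.192, 0.207, 0.0979 and 0.0729 UMIs per 10000, was higher within each library, though the ranges of the classes overlapped. Its difference was 1.76-fold (log2 0.82 ± 0.16 SE, adjusted p = 3.58e-05, edgeR), and in the 10x libraries alone it fell short of the threshold (log2 0.45, adjusted p = 0.0526). Acly had 0.767, 0.709, 0.750, 1.16 and 1.02 UMIs per 10000 in epithelial-like cells, against 0.317, 0.415, 0.657, 0.758 and 0.656 in the fibroblast-like class, a 1.62-fold difference (log2 0.70 ± 0.15 SE, adjusted p = 1.46e-04, edgeR). Its ranges overlapped as well, and its smallest gap was in the stored library.

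The cholesterol branch was split. Sqle had 0.271, 0.339, 0.234, 0.296 and 0.303 UMIs per 10000 in epithelial-like cells, against 0.112, 0.125, 0.0957, 0.0712 and 0.0756 in the fibroblast-like class, 3.13-fold higher without overlap (log2 1.65 ± 0.18 SE, adjusted p = 1.56e-09, edgeR). Hmgcs1 had 0.279, 0.471, 0.238, 0.224 and 0.257 in epithelial-like cells, against 0.567, 0.369, 0.386, 0.325 and 0.291 in the fibroblast-like class. It was lower in epithelial-like cells of 4 of 5 libraries, and the exception was fresh 10x 2 (log2 -0.40 ± 0.16 SE, adjusted p = 0.0300, edgeR). The Hmgcs1 call was lost without the stored library (log2 -0.34, adjusted p = 0.109) and without BD Rhapsody 1 (log2 -0.39, adjusted p = 0.0509).

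Endothelial-like cells, which gave sums in 4 libraries because BD Rhapsody 2 held only 13 of them, had the lowest Fasn level of the tested classes in 4 of 4. Fasn there was 0.0799, 0.0760, 0.207 and 0.0426 UMIs per 10000, and epithelial-like cells were 7.91-fold higher (log2 2.98 ± 0.24 SE, adjusted p = 1.21e-11, edgeR). Of the 8 genes 6 were called higher in epithelial-like cells and 0 lower, where 31.9% of all genes tested were called higher and 24.3% lower (56.1% in either direction), and the median of the 8 was 1.95 against 0.16 for all genes. Scd1 was 11.7-fold higher (log2 3.55 ± 0.32 SE, adjusted p = 1.14e-10) and Sqle was higher as well (log2 2.32 ± 0.30 SE, adjusted p = 9.48e-08), both by edgeR. Acaca differed by 1.58 ± 0.26 and Scd2 by 1.30 ± 0.18 on the log2 scale.

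Acly and Hmgcs1 were the exceptions in that comparison. Acly had 0.785, 0.532, 1.13 and 1.21 UMIs per 10000 in endothelial-like cells, of which 1 lay under and 1 above the epithelial-like range (log2 0.10 ± 0.18 SE, adjusted p = 0.667, edgeR). Hmgcs1 had 0.291, 0.510, 0.318 and 0.468 there (log2 -0.11 ± 0.22 SE, adjusted p = 0.693, edgeR). Thrsp was 9.42-fold higher in epithelial-like cells (log2 3.24 ± 0.51 SE, adjusted p = 3.09e-06, edgeR), but its endothelial-like values of 0.116, 0.651, 1.76 and 0 were uneven, highest in the stored library and 0 UMIs in BD Rhapsody 1. They were above the share of the background genes in 3 of 4 libraries, as were those of Fasn, Acaca, Scd1 and Sqle. The summed adipocyte markers were 23.2 to 43.5 UMIs per 10000 in endothelial-like cells, nearly all of them Fabp4, which capillary endothelium also expresses.

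Against macrophage-like cells 7 of the 8 genes were called higher and 0 lower, with 33.8% of all genes called higher and 27.3% lower (61.0% in either direction), and the median was 1.36 against 0.13. Thrsp was 9.91-fold higher (log2 3.31 ± 0.46 SE, adjusted p = 3.21e-07) and Scd1 8.46-fold (log2 3.08 ± 0.28 SE, adjusted p = 9.02e-11), both by edgeR. The summed background genes in macrophage-like cells were at 6.83% to 14.3% of their epithelial-like level. The Thrsp share exceeded theirs in 1 of 5 libraries and the Scd1 share in 3 of 5. The source of these UMIs was not tested. Fasn was 2.53-fold higher, with 0.248, 0.249, 0.256, 0.277 and 0.182 UMIs per 10000 in macrophage-like cells, all below the epithelial-like values (log2 1.34 ± 0.17 SE, adjusted p = 5.92e-08, edgeR). Scd2 differed by 1.43 ± 0.17, Sqle by 1.39 ± 0.22 and Acaca by 1.00 ± 0.20 on the log2 scale. The Acly difference was small (log2 0.51 ± 0.16 SE, adjusted p = 0.00819, edgeR) and was not called in the 10x libraries alone (log2 0.49, adjusted p = 0.107) or without fresh 10x 1 (log2 0.28, adjusted p = 0.124). Hmgcs1 was not called (log2 0.11 ± 0.20 SE, adjusted p = 0.644, edgeR).

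Against T-like cells 7 of the 8 were called higher and 0 lower, with 28.5% of all genes higher and 19.8% lower (48.3% in either direction), and the median was 1.38 against 0.23. Thrsp was 11.9-fold higher (log2 3.57 ± 0.56 SE, adjusted p = 5.35e-06) and Scd1 5.62-fold (log2 2.49 ± 0.31 SE, adjusted p = 9.33e-08), both by edgeR. The summed background genes in T-like cells were at 2.12% to 23.9% of their epithelial-like level. The Thrsp share exceeded theirs in 1 of 5 libraries, and the Scd1 and Sqle shares in 3 of 5. The source of these UMIs was not tested. Fasn, at 0.214, 0.277, 0.445, 0.268 and 0.374 UMIs per 10000 in T-like cells, differed by 1.11 ± 0.23 on the log2 scale, less than in the other 3 comparisons by point estimate and without a test between them. Sqle differed by 1.83 ± 0.38, Scd2 by 1.65 ± 0.20 and Acly by 0.90 ± 0.22. The Sqle value rested on 3, 2, 1, 0 and 6 UMIs in T-like cells. Sqle was higher in epithelial-like cells of 4 of 5 libraries. Its log2 values ran from -0.03 in fresh 10x 2 to 4.6 in BD Rhapsody 1, where T-like cells had 0 UMIs. Acaca (log2 0.98 ± 0.33 SE, adjusted p = 0.0152, edgeR) was not called without fresh 10x 1 (log2 0.82, adjusted p = 0.0792) or in the BD Rhapsody libraries alone (log2 0.53, adjusted p = 0.344). These class sums were small, from 22 to 96 T-like cells per library, and Hmgcs1 was again not called (log2 0.13 ± 0.31 SE, adjusted p = 0.760, edgeR).

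Mural-like cells, the smooth-muscle-type cells of vessel walls, reached 20 cells in the 10x libraries alone and were described without a test. Hmgcs1 had 0.425, 0.505 and 0.803 UMIs per 10000 there, above the epithelial-like level of the same library in 3 of 3, and Acly had 1.06, 0.758 and 1.34, likewise above it in 3 of 3. Scd1 was at 0.152, 0.168 and 0.178 and Thrsp at 0.0304, 0.0281 and 0.178, both far under the epithelial-like values. The order of the classes therefore differed by gene. By medians over the libraries that gave each tested or mural-like class, epithelial-like cells were first for Thrsp, Scd1, Scd2, Fasn, Acaca and Sqle. For Acly the mural-like and endothelial-like medians were above the epithelial-like one, and for Hmgcs1 so were those of fibroblast- and T-like cells, with overlapping ranges in each case.

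The rest of each pathway was read from lists. Of all genes tested, 38.1%, 31.9%, 33.8% and 28.5% were called higher in epithelial-like than in fibroblast-, endothelial-, macrophage- and T-like cells. The shares called lower were 31.6%, 24.3%, 27.3% and 19.8%, and the all-gene medians were 0.11, 0.16, 0.13 and 0.23. Of 19 other fatty acid synthesis genes tested, 12, 14, 12 and 12 were called higher in epithelial-like cells than in fibroblast-, endothelial-, macrophage- and T-like cells and 1, 3, 2 and 2 lower, with medians of 0.79, 1.17, 0.61 and 0.98 on the log2 scale. Me1, malic enzyme, a source of the NADPH that fatty acid synthesis consumes, was higher by 2.04, 3.75, 3.47 and 2.39, and the elongase gene Elovl7 by 3.89, 2.90, 2.91 and 2.57. The lower ones were Mid1ip1 against fibroblast-like, Elovl5, Acsl5 and Mid1ip1 against endothelial-like, Mid1ip1 and Acsl5 against macrophage-like, and Elovl5 and Acsl5 against T-like cells. Of 19 other cholesterol synthesis genes, 12, 15, 10 and 7 were called higher and 1, 1, 3 and 2 lower, with medians of 0.79, 1.27, 0.45 and 0.57. Idi1, isopentenyl-diphosphate isomerase, was higher by 2.62 than in fibroblast-like, by 2.03 than in endothelial-like and by 1.54 than in macrophage-like cells. The lower ones were Mvk against fibroblast-like, Lbr against endothelial-like, Msmo1 and Lbr among those against macrophage-like, and Lbr and Hsd17b7 against T-like cells.

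Among 16 tested genes of sterol sensing and lipid regulation, calls ran in both directions, 8 higher and 6 lower against fibroblast-like cells, 7 and 5 against endothelial-like, 4 and 5 against macrophage-like and 5 and 2 against T-like cells. Of all genes, 38.1%, 31.9%, 33.8% and 28.5% were called higher and 31.6%, 24.3%, 27.3% and 19.8% lower, which leaves little to read from these counts. The list medians were 0.35, 0.36, -0.02 and 0.34, against 0.11, 0.16, 0.13 and 0.23 for all genes. Srebf1, which encodes SREBP1, was higher in epithelial-like cells by 3.13, 3.08, 2.43 and 1.93 on the log2 scale. The sterol exporter genes Abca1 and Abcg1 were lower, Abca1 by -1.56, -2.53 and -3.12 against fibroblast-, endothelial- and macrophage-like cells, and Abcg1 by -3.27, -4.07 and -2.44 against endothelial-, macrophage- and T-like cells. All of these named genes passed the edgeR threshold.

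**Figure D2:**
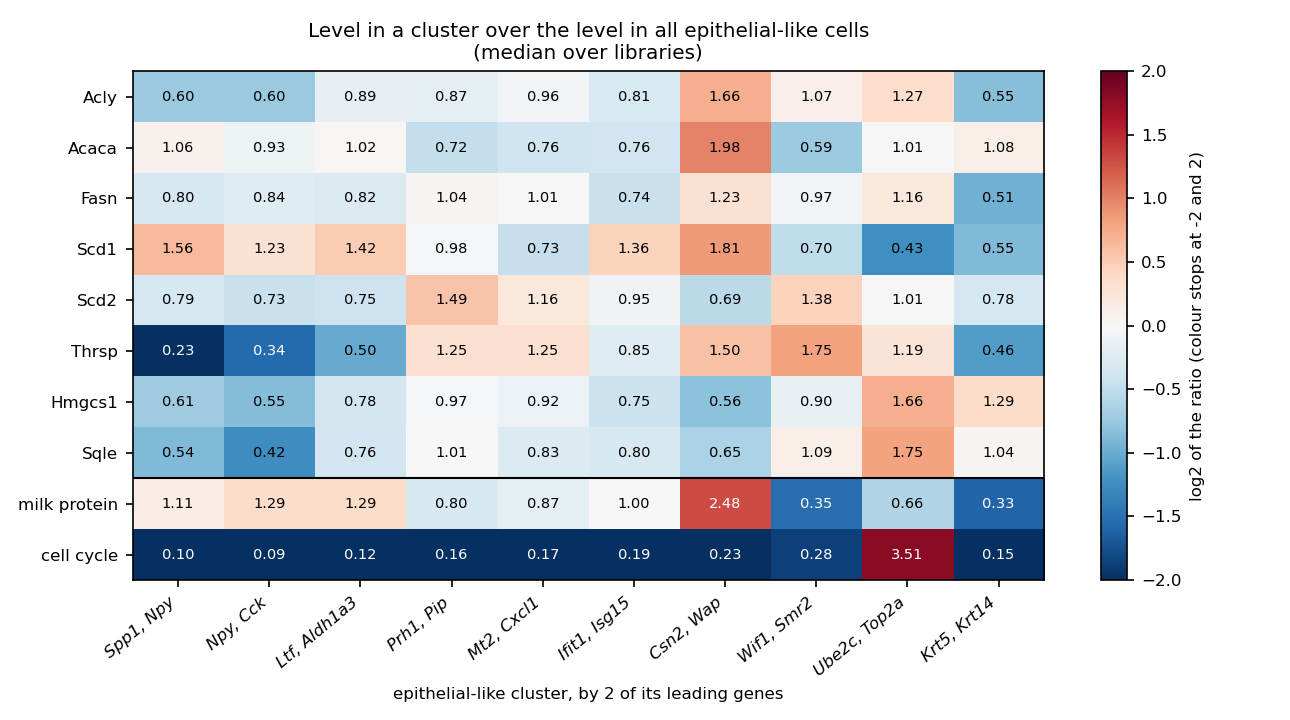
Level of each gene in an epithelial-like cluster divided by its level in all epithelial-like cells, median over libraries (colour), with genes in rows and clusters, labelled by 2 leading genes, in columns. Acaca reached 1.98 in the cluster led by Csn2 and Wap, Sqle 1.75 in the cycling cluster led by Ube2c and Top2a, and Thrsp fell to 0.231 in the cluster led by Spp1 and Npy.

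Within the epithelial-like cells the 8 genes did not peak in the same cluster. Of the 11 epithelial-like clusters 10 gave sums, 9 of them in fresh 10x 1, and were compared without a test, since the same cells gave the clusters. Clustering used milk protein and cell cycle genes. The cluster led by the milk protein genes Csn2 and Wap, whose summed milk protein genes were 2.48 times those of all epithelial-like cells by median ratio, had the highest Acaca level in 5 of 5 libraries, at 0.478, 0.608, 0.524, 0.397 and 0.388 UMIs per 10000. It was first for Acly in 4 of 5 libraries (median ratio 1.66) and for Scd1 in 4 of 5 (1.81), with 3.97, 2.70, 5.35, 8.34 and 7.03 Scd1 UMIs per 10000. Fasn there had a median ratio of 1.23 and was first in 3 of 5. Scd2, Hmgcs1 and Sqle were low in the same cluster, with median ratios of 0.685, 0.565 and 0.647.

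Scd2 had its own place. It was first in 4 of 5 libraries in the cluster led by Prh1 and Pip, genes of secreted proteins, with 1.91, 2.81, 2.48, 4.67 and 4.45 UMIs per 10000 and a median ratio of 1.49. Thrsp had a median ratio of 1.50 in the Csn2 and Wap cluster and of 1.75 in the cluster led by Wif1 and Smr2, which gave sums in 4 libraries and in which Acaca was last in all 4 (0.595). In the cluster led by Spp1 and Npy, Thrsp was last in 5 of 5 libraries, at 0.881, 1.10, 0.917, 0.893 and 0.700.

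The cholesterol genes were high in cycling cells, and the highest there in most libraries. In the cluster led by Ube2c and Top2a, genes of mitosis, whose summed cell cycle genes were 3.51 times those of all epithelial-like cells, Sqle was first in 4 of 5 libraries, at 0.480, 0.545, 0.375, 0.520 and 0.531 UMIs per 10000. Hmgcs1 there had 0.470, 0.783, 0.352, 0.391 and 0.416 and was first in 3 of 5, with a median ratio of 1.66. In fresh 10x 2 the Wif1 and Smr2 cluster, of 45 cells, was first for Hmgcs1 (0.804). In BD Rhapsody 2 it was the cluster led by Npy and Cck (0.433), which was last for Hmgcs1 in 3 libraries. In the Ube2c and Top2a cluster Scd1 was last in 3 of 5, at 0.696, 0.809, 1.30, 1.65 and 1.96, a median ratio of 0.428. In the cluster led by the basal keratins Krt5 and Krt14, Fasn was last in 5 of 5 libraries, at 0.201, 0.324, 0.389, 0.299 and 0.363, and Scd1 was low (0.545) while Hmgcs1 was not (1.29). Sqle was last in 4 of 5 libraries in the cluster led by Npy and Cck (0.423).

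**Figure D3:**
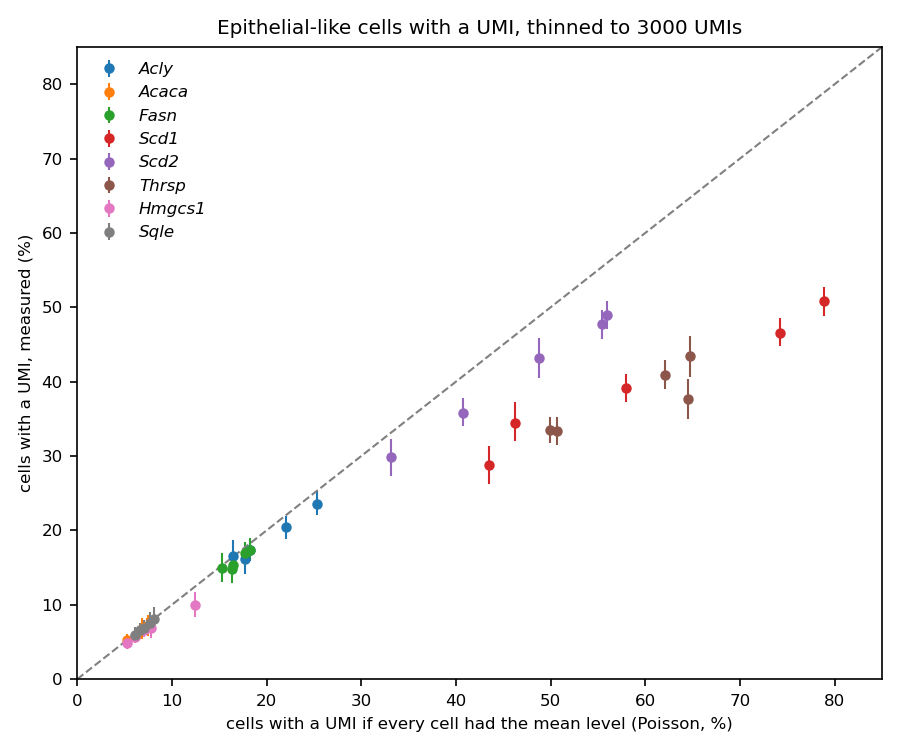
Share of epithelial-like cells with a UMI (y axis, %) against the share if every cell had the mean level (x axis, Poisson, %), both after thinning each cell to 3000 UMIs, with 1 point per gene and library and a line where both are equal. Thrsp lay at 33.3% to 43.4% where 49.9% to 64.7% would follow from the mean level, and Scd1 at 28.8% to 50.8% where 43.5% to 78.9% would.

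Thrsp and Scd1 were spread unevenly over epithelial-like cells, and Hmgcs1 by 1 measure whose value changed with depth and library. Each epithelial-like cell was thinned to 3000 UMIs, which kept 1304, 1294, 2503, 2603 and 2815 cells and left out 43, 48, 232, 2 and 98 shallower ones. Thrsp then had a UMI in 37.7%, 43.4%, 40.9%, 33.3% and 33.5% of cells, against 64.5%, 64.7%, 62.1%, 50.7% and 49.9% if all cells shared the mean level. Its Fano factor, the variance over the mean, which is 1 for pure counting error, was 2.97 to 4.24. The 10% of cells with most Thrsp held 52.9% to 58.3% of its UMIs.

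Scd1 had a UMI in 28.8%, 34.5%, 39.1%, 50.8% and 46.6% of thinned cells, against 43.5%, 46.2%, 58.0%, 78.9% and 74.2% under equal levels, with a Fano factor of 2.98 to 6.52. Its top 10% of cells held 55.6% to 63.9% of its UMIs. For Scd2 the Fano factor was 1.26 to 1.57, for Hmgcs1 1.17 to 1.76, for Acly 0.985 to 1.25, for Fasn 1.07 to 1.20, for Acaca 1.03 to 1.13 and for Sqle 1.02 to 1.06. The Fano factor grows with the mean level, so the variance beyond counting error was also divided by the squared mean. By this measure Hmgcs1 had 2.33 to 5.75, Scd1 3.19 to 4.41 and Thrsp 2.39 to 3.13, against 0.639 to 0.789 for Scd2 and -0.0822 to 1.96 over Acly, Fasn, Acaca and Sqle. With cells thinned to 6000 UMIs, Scd1 had 3.42 to 5.72 and Thrsp 2.29 to 2.99. Hmgcs1 then had 3.08, 2.64, 0.843, 2.04 and 12.3. In the stored library this was below Sqle (0.972), and in BD Rhapsody 2 the highest cell held 23 Hmgcs1 UMIs. Scd2 had a UMI in 29.8% to 48.9% of cells. The remaining genes were sparse at this depth, with UMIs in 14.8% to 17.4% of cells for Fasn, 16.1% to 23.6% for Acly, 5.19% to 7.15% for Acaca, 4.84% to 9.97% for Hmgcs1 and 5.95% to 8.11% for Sqle.

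Across single cells within a library the 8 genes were nearly uncorrelated at this depth. The median Pearson r over the 5 libraries, of log(1 + UMIs) across thinned cells that share a library and a depth, was 0.11 for Thrsp and Acly (0.09 to 0.16), 0.12 for Scd1 and Scd2 (0.08 to 0.13), 0.04 for Hmgcs1 and Sqle, and 0.01 for Fasn and Acaca. Scd1 had an r of 0.15 with the sum of milk protein genes and of -0.15 with the sum of cell cycle genes, while Thrsp and Sqle had 0.11 and 0.12 with the latter. Among the 2751 genes seen in enough cells, those most like Thrsp were Xbp1 (0.21), Rps27l (0.20) and Car6 (0.19), those most like Scd1 were Ly6e (0.19), Igfbp5 (0.18) and Itm2b (0.17), and those most like Scd2 were Srebf1 (0.16), Aqp5 (0.15) and Cpd (0.14). Acly was most like Thrsp (0.11), Csn1s1 (0.09) and Wap (0.09), Acaca most like Csn1s1 (0.10), Ltf (0.08) and Slc28a3 (0.07), and Sqle most like H2afz (0.10), Hmgb2 (0.09) and Smc4 (0.09). Fasn and Hmgcs1 had no gene above 0.07. Correlations this weak in sparse counts are no finding.

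**Figure D4:**
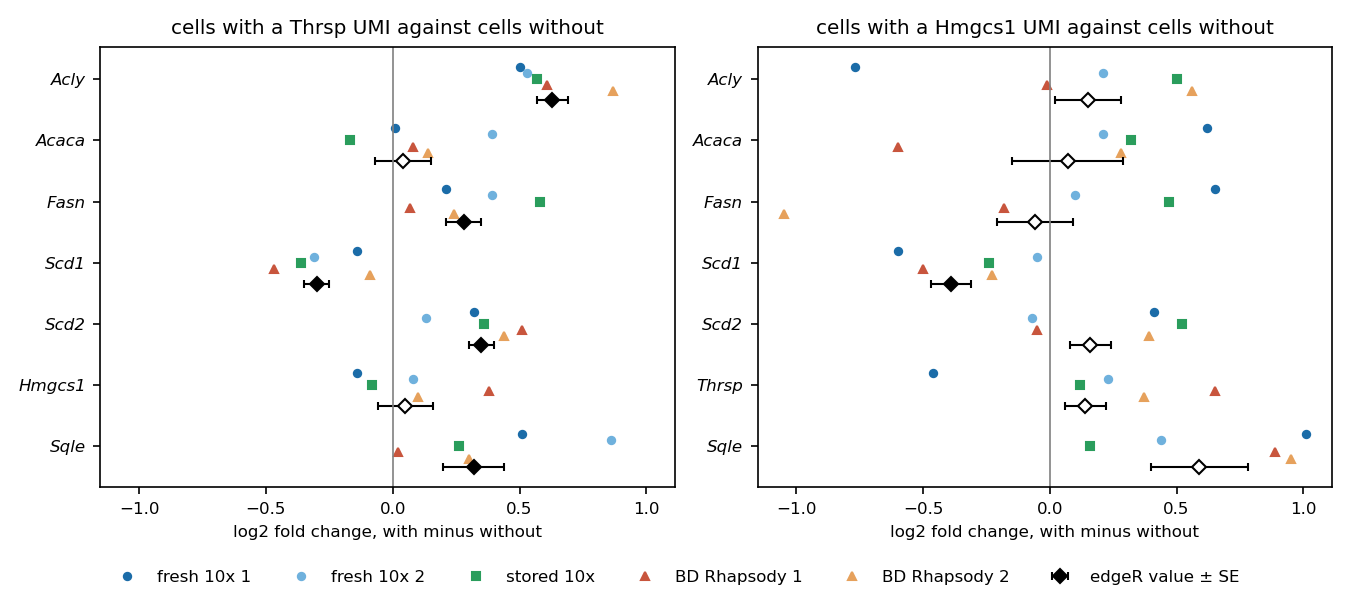
Log2 fold change of the other members (x axis) between thinned epithelial-like cells with and without a Thrsp UMI and with and without a Hmgcs1 UMI, from edgeR with SE bars, with 1 small point per library. In the Thrsp panel Acly stood at 0.63 and Scd1 at -0.30, and in the Hmgcs1 panel Sqle stood at 0.59 and Scd1 at -0.39.

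Epithelial-like cells with a Thrsp UMI carried more Acly, Scd2, Fasn and Sqle and less Scd1 than cells without one. Cells were split within each library after thinning, into 491 with and 813 without in fresh 10x 1, 561 and 733, 1024 and 1479, 867 and 1736, and 943 and 1872 in the other 4. The split marks a range of one population, not a cell type. With edgeR on the sums and the library as a block, 4 of the 7 other members were called higher and 1 lower, where 13.1% of the 10356 genes tested were called higher and 12.0% lower, 25.1% in either direction.

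Acly had 0.794, 0.725, 0.830, 1.26 and 1.18 UMIs per 10000 in cells with a Thrsp UMI and 0.562, 0.500, 0.559, 0.826 and 0.648 in cells without. It was higher in 5 of 5 libraries, by 0.50 to 0.87 on the log2 scale (log2 0.63 ± 0.06 SE, adjusted p = 4.73e-09, edgeR). Scd2 had 1.53, 2.35, 2.00, 3.36 and 3.31 against 1.23, 2.14, 1.56, 2.35 and 2.43, higher in 5 of 5 (log2 0.35 ± 0.05 SE, adjusted p = 1.19e-06, edgeR). Both genes were higher on each side in the BD Rhapsody libraries, so the ranges overlapped while each library showed the difference.

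Scd1 went the other way, with 1.79, 1.82, 2.48, 4.13 and 4.33 UMIs per 10000 in cells with a Thrsp UMI and 1.97, 2.25, 3.18, 5.71 and 4.60 without, lower in 5 of 5 libraries (log2 -0.30 ± 0.05 SE, adjusted p = 1.88e-05, edgeR). Fasn was higher by 0.28 ± 0.07 SE (adjusted p = 0.00563, edgeR), a call lost with DESeq2 (0.30, adjusted p = 0.0781), in the BD Rhapsody libraries alone (0.11, adjusted p = 0.506) and without the stored library (0.18, adjusted p = 0.132). Sqle was higher by 0.32 ± 0.12 SE (adjusted p = 0.0425, edgeR), a call lost in 7 of 12 alternatives, among them DESeq2 (0.36, adjusted p = 0.194) and the BD Rhapsody libraries alone (0.11, adjusted p = 0.711). Acaca (0.04, adjusted p = 0.857) and Hmgcs1 (0.05, adjusted p = 0.786) were not called by edgeR, though Hmgcs1 was called higher when cells were thinned to 6000 UMIs (0.31, adjusted p = 0.0189).

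The share of cells with a Thrsp UMI varied with the cluster, from 12.6% to 19.7% in the Spp1 and Npy cluster to 54.7% to 71.4% in the Wif1 and Smr2 cluster and 47.5% to 61.0% in the Csn2 and Wap cluster. Within 44 combinations of library and cluster, Acly was higher in cells with a Thrsp UMI in 34, Scd2 in 32, Fasn in 28 and Sqle in 24, and Scd1 was lower in 27. Of the genes not called, Acaca was higher in 25 and Hmgcs1 lower in 27. The Sqle and Scd1 counts therefore did not stand apart from those of uncalled genes. How much of each difference comes from cluster makeup was not tested beyond these counts.

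Other lipid genes were called along the same split, where 13.1% of all genes tested were called higher and 12.0% lower. Of 19 other cholesterol synthesis genes 13 were called higher and 0 lower by edgeR, with a median log2 change of 0.42 against 0.00 for all genes tested. Fdps, which makes farnesyl diphosphate, rose by 0.79, Idi1 by 0.76, the mevalonate kinase gene Mvk by 0.61 and Nsdhl by 0.59. Among 15 regulators 4 were higher, among them Insig1, Stard4 and Scap, and 5 were lower (Abca1, Mylip, Abcg1, Insig2, Nr1h2). Insig1, which holds SREBP precursors in the endoplasmic reticulum, rose by 0.68, whereas Abca1 fell by 0.90 and Mylip, a ubiquitin ligase gene, fell by 0.63.

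The following counts stand beside the same all-gene shares of 13.1% higher and 12.0% lower. Of 21 other fatty acid synthesis genes 6 were higher and 1, Hacd3, was lower (median 0.19), led by Aacs at 0.67 and Tecr at 0.31. Of 13 triglyceride and milk fat genes 5 were higher and 0 lower, led by the fatty acid binding protein gene Fabp3 at 2.80 and the lipoprotein lipase gene Lpl at 0.87, and followed by Fabp5, Lpin1 and Plin2. Of the 10 adipocyte markers 2 were tested and 1, Fabp4, was called higher. Milk protein genes were split, with 6 of 8 higher, among them Glycam1 at 2.23, Wap at 1.33 and Csn2 at 1.30, and with Wfdc18 and Csn3 lower. Of 10 cell cycle genes 9 were higher (median 0.63). The part of milk protein, adipocyte and cell cycle genes in the differences of the members was not tested.

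Cells with a Hmgcs1 UMI, 89 to 164 per library, carried less Scd1 and more of 5 of the 19 other cholesterol synthesis genes tested. Of the 7 other members 0 were called higher and 1 lower by edgeR, where 0.930% of the 9889 genes tested were called higher and 1.22% lower, 2.15% in either direction. Scd1 had 1.27, 1.99, 2.46, 3.70 and 3.87 UMIs per 10000 with a Hmgcs1 UMI and 1.95, 2.07, 2.92, 5.26 and 4.55 without, lower in 5 of 5 libraries (log2 -0.39 ± 0.08 SE, adjusted p = 5.75e-04, edgeR). The Scd1 call was lost when cells were thinned to 6000 UMIs (-0.18, adjusted p = 0.0559) and in the 10x libraries alone (-0.31, adjusted p = 0.298).

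Sqle had 0.487, 0.362, 0.224, 0.423 and 0.414 UMIs per 10000 with a Hmgcs1 UMI and 0.250, 0.275, 0.208, 0.235 and 0.219 without, higher in 5 of 5 libraries. It did not pass the threshold at 3000 UMIs (log2 0.59 ± 0.19 SE, adjusted p = 0.114, edgeR) and passed it at 6000 UMIs (0.61, adjusted p = 4.26e-04). Thrsp (0.14, adjusted p = 0.543), Scd2 (0.16, adjusted p = 0.479), Acly (0.15), Acaca (0.07) and Fasn (-0.06) were not called. Only 8 combinations of library and cluster held enough cells on both sides, with Sqle higher in 6 and Scd1 lower in 4 and higher in 4. Acly and Scd2 were likewise higher in 6, so the Sqle count did not stand apart.

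Of 19 other cholesterol synthesis genes 5 were called higher by edgeR and 0 lower, with a median of 0.65 against -0.01 for all genes tested. In this split 0.930% of all genes tested were called higher and 1.22% lower. Msmo1, a sterol methyl oxidase, was higher by 1.38, Idi1 by 1.15, Fdps by 0.82 and Acat2 by 0.76, and Cyp51 was the fifth. Insig1 was higher by 1.03 and Srebf1 lower by -0.53. Of 20 other fatty acid synthesis genes 1 was called, the elongase gene Elovl6 at 0.65. All 8 milk protein genes were lower, among them Glycam1 at -1.29 and Csn2 at -0.80, and 7 of 10 cell cycle genes were higher (median 0.65), and the part of these in the member values was not tested.

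**Figure D5:**
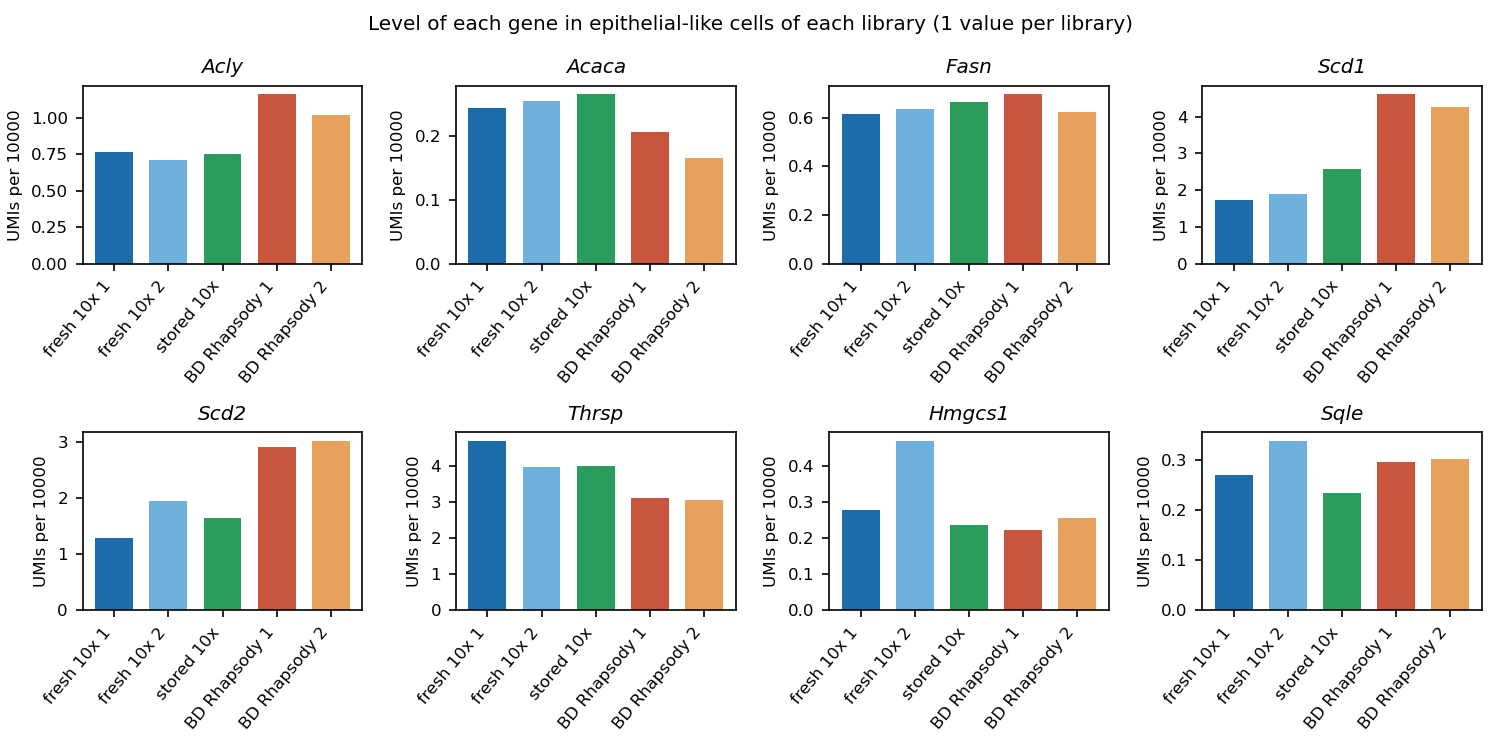
Level of each gene in epithelial-like cells (y axis, UMIs per 10000) in each of the 5 libraries (x axis), with 1 value per library and no error bar. Scd1 was at 1.72 and 1.89 in the fresh 10x libraries, at 2.56 in the stored library and at 4.60 and 4.25 on BD Rhapsody, while Fasn stayed between 0.616 and 0.695.

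The platforms gave different levels for most of the genes in epithelial-like cells. BD Rhapsody 1 was set against the 2 fresh 10x libraries, so the test takes its spread from that pair alone, and platform, tumour and day of preparation cannot be told apart. By edgeR 3 members were called higher on BD Rhapsody and 3 lower, where 21.7% of the 14386 genes tested were called higher and 21.4% lower (43.1% in either direction), shares that leave little to read from the count. Scd1 was higher by 2.29-fold (log2 1.20 ± 0.11 SE, adjusted p = 7.64e-04), and it exceeded both fresh 10x values in 9 of 9 clusters compared. Scd2 was higher by 1.63-fold (log2 0.70 ± 0.22 SE, adjusted p = 0.0434, edgeR), also in 9 of 9 clusters, and Acly by 1.41-fold (log2 0.50 ± 0.11 SE, adjusted p = 0.0152, edgeR) in 8 of 9.

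Thrsp was lower on BD Rhapsody (log2 -0.64 ± 0.15 SE, adjusted p = 0.0185, edgeR), as were Hmgcs1 (-0.89 ± 0.28 SE, adjusted p = 0.0465) and Acaca (-0.43 ± 0.12 SE, adjusted p = 0.0327). They lay under both fresh 10x values in 5, 8 and 4 of 9 clusters. The Acaca call was lost with DESeq2 (-0.44, adjusted p = 0.174) and the Hmgcs1 call with cells of low mitochondrial share alone (-0.79, adjusted p = 0.0590). Fasn (log2 0.00 ± 0.10 SE, adjusted p = 0.992, edgeR) and Sqle (-0.20 ± 0.15 SE, adjusted p = 0.332, edgeR) were not called. The edgeR scaling sets a zero line other than plain UMIs per 10000, on which Fasn in BD Rhapsody 1 was 0.13 to 0.17 (log2) above the fresh 10x libraries. When a fresh library was left out, which leaves no test, Scd2 moved between 0.47 and 1.03, Hmgcs1 between -1.19 and -0.46, Thrsp between -0.75 and -0.48 and Sqle between -0.31 and -0.02. Of all genes tested 21.7% were called higher and 21.4% lower. In the pathway lists calls ran both ways, 8 higher and 4 lower of 23 fatty acid genes and 6 higher and 5 lower of 19 cholesterol genes, from Fdps at -3.38 and Pmvk at -1.82 to Tm7sf2 at 1.81. The other lower ones were Olah, Mcat, Mecr and Elovl1 among the fatty acid genes and Mvk, Mvd and Ebp among the cholesterol genes.

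After storage, which was compared with the same 2 fresh libraries, none of the 8 genes was called in epithelial-like cells by edgeR. Of 13996 genes tested 1.06% were called higher and 0.343% lower, 196 or 1.40% in either direction, and 2333 genes had an unadjusted p under 0.05, while DESeq2 called 182 genes and none of the 8. Scd1 came closest, at 2.56 UMIs per 10000 in stored 10x against 1.72 and 1.89 (log2 0.52 ± 0.12 SE, unadjusted p = 0.00290, adjusted p = 0.0952, edgeR), and was above both fresh libraries in 8 of 9 clusters. It passed the threshold when no filter on low counts was applied (0.53, adjusted p = 0.0183). Hmgcs1 (log2 -0.64 ± 0.25 SE, unadjusted p = 0.0360, adjusted p = 0.262, edgeR) and Sqle (-0.37 ± 0.15 SE, unadjusted p = 0.0374, adjusted p = 0.266, edgeR) were lower by estimate.

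Fasn (0.09), Acaca (0.10), Acly (0.03), Scd2 (0.04) and Thrsp (-0.10) had log2 differences after storage smaller than their standard errors of 0.11, 0.12, 0.12, 0.21 and 0.16. Of the other fatty acid, cholesterol, regulator, triglyceride, oxidation, milk protein and cell cycle genes 0 were called by edgeR. Of the 10 adipocyte markers 3 were tested and Fabp4 was called higher (log2 2.44 ± 0.18 SE, adjusted p = 0.00192, edgeR), and its part in the member values was not tested. With 1 stored library, storage and the tumour it came from cannot be told apart.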

How the data were processed

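Single-cell RNA libraries of PyMT mouse mammary tumours were read from 5 matrices, whose values are raw UMI counts that the authors deposited as whole numbers. Per the submitters' processing notes, Cell Ranger 3.0.1 and the build mm10 were used; which libraries each applies to is not given in the sources used here. The authors had already selected the cells. Spellings of the same gene symbol were merged, which left 41028 names, and cells with at least 200 genes were kept. Cells were clustered with scanpy 1.11.5 and igraph 0.11.9 in Python 3.11.15 (2000 variable genes without the 8 members and the lipid lists, 30 components, 15 neighbours, Leiden resolution 1.0), and clusters were named from marker lists, with at least 3 detected markers. A cluster led by mitochondrial transcripts stayed unnamed. Doublets were called at an expected rate of 0.06; 33 cells were marked and left out, 0% to 1.03% of a library, so the caller did not work and doublets are in effect not removed.

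Counts were summed per library and class (at least 20 cells) and tested with edgeR 4.0.16 (R 4.3.3; TMM, filterByExpr, quasi-likelihood test, Benjamini-Hochberg adjustment over all genes tested, threshold 0.05). The library was a block in the class and split comparisons. Standard errors were derived from the fold change and the F statistic. The scripts were tested on simulated data. Levels are UMIs per 10000 UMIs of the class; intervals and floors on such counts would cover counting error only. For splits and shares each cell was thinned to 3000 UMIs. The alternatives were RLE size factors, DESeq2 1.42.0, no filter on low counts, other cell filters, marker gates in place of clusters, 6000 UMIs, at least 50 cells per sum, each platform alone, and each library left out. Counting the mitochondrially led cluster as epithelial was an alternative chosen after seeing the data. The 8 members are named throughout; of each list, up to 4 called genes with the largest change and the same sign in every library are named, and for likeness the 3 genes with the highest median correlation. Other names given for counts of 5 or fewer, and Fabp4 in the Thrsp split, were chosen after their values were seen. The members and lists were chosen with earlier results of these data known. Some list genes that the naming rule covers are not reported here. Drop-seq libraries were not analysed here.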

Additional observations from a re-analysis of the deposited data

How the results depend on the processing

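Of the member values under other settings, 687 were counted as unchanged and 30 changed sign. Another 21 lost a call, 4 gained one and 10 moved without a test. The unchanged values kept their direction and their side of the threshold or, where there was no test, moved by less than 1 standard error. The counts of genes called moved by over 1.5 times in these cases. Against macrophage-like cells 4928 genes were called in the 10x libraries alone (7423 in all libraries), and against T-like cells 3910 (5874). After storage (196 genes), 747 were called with no filter on low counts, 96 with a stricter cell filter (500 UMIs or more, mitochondrial share up to 20%), 109 with the mitochondrially led cluster counted as epithelial (chosen after seeing the data) and 301 with both BD Rhapsody libraries grouped by title. For the Thrsp split (2602 genes, 5 members), DESeq2 called 1119 genes and 3 members, the 10x libraries alone gave 1350 genes, BD Rhapsody alone 1160 genes and 3 members, and leaving out 1 library gave 3 to 5 members. For the Hmgcs1 split (213 genes, 1 member), DESeq2 called 76 genes, 6000 UMIs gave 657, the 10x libraries alone 69, BD Rhapsody alone 129 genes and 2 members (Thrsp at 0.40, adjusted p = 0.0243, edgeR), and leaving out 1 library gave 130 to 230 genes.

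Log2 values that changed sign were none of them called. Acly against endothelial-like cells was -0.02 with RLE and with DESeq2 and -0.07 to 0.24 with 1 library left out. Hmgcs1 against endothelial-like cells was 0.06 with at least 50 cells per sum and -0.43 to 0.04 with 1 library left out. Against macrophage-like cells it was -0.33 in BD Rhapsody alone and -0.02 to 0.36 with 1 library left out, and against T-like cells -0.07 with marker gates and -0.10 in BD Rhapsody alone. For platform, Fasn was -0.02 with RLE and with DESeq2, 0.00 with the stricter cell filter and -0.04 with BD Rhapsody grouped by title. For storage, leaving out 1 library gave -0.03 to 0.13 for Acly, -0.20 to 0.35 for Scd2 and -0.23 to 0.06 for Thrsp. In the Thrsp split, Hmgcs1 gained a call at 6000 UMIs (0.31, adjusted p = 0.0189, edgeR). Acaca was -0.02 to 0.12 with 1 library left out, and Hmgcs1 -0.03 in 10x alone and -0.01 to 0.09 with 1 library left out. In the Hmgcs1 split, Fasn was 0.11 with the stricter cell filter, 0.19 at 6000 UMIs, 0.34 in 10x alone and -0.24 to 0.18 with 1 library left out, Acaca was -0.01 with no filter on low counts, -0.01 at 6000 UMIs, -0.28 in BD Rhapsody alone and -0.01 to 0.22 with 1 library left out, and Thrsp was -0.03 in 10x alone. The cause was not tested.

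No paired analysis was possible because the groups of the platform and storage comparisons share fewer than 2 replicate numbers; the class and split comparisons already had the library as a block. BD Rhapsody alone gave no value against endothelial-like cells, since BD Rhapsody 2 held 13 of them. Depth limits Acaca, Hmgcs1 and Sqle most, each with a UMI in under 10% of thinned cells.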

Other observations

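Genes of fat handling outside synthesis were called in both directions. Of all 12159 genes tested, 38.1%, 31.9%, 33.8% and 28.5% were called higher in epithelial-like cells in the 4 comparisons below. The shares called lower were 31.6%, 24.3%, 27.3% and 19.8%. Of 13 triglyceride and milk fat genes tested by edgeR, 9, 8, 6 and 9 were called higher in epithelial-like cells than in fibroblast-, endothelial-, macrophage- and T-like cells, and 2, 1, 4 and 1 lower. Their median log2 changes were 0.6, 1.05, 0.08 and 1.36, against 0.11, 0.16, 0.13 and 0.23 for all genes. Btn1a1, butyrophilin of the milk fat globule, was higher by 3.87, 5.08, 2.37 and 2.41 on the log2 scale. Cd36, a fatty acid transporter, was lower by -2.69 than in fibroblast-like, by -8.15 than in endothelial-like and by -5.82 than in macrophage-like cells. Lpl, which releases fatty acids from lipoproteins, was lower by -5.36 than in fibroblast-like and by -2.65 than in macrophage-like cells and higher by 2.83 than in T-like cells.

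Of 9 fatty acid oxidation genes tested, 5, 7, 7 and 6 were called higher in epithelial-like cells and 2, 1, 1 and 1 lower, beside the same all-gene shares. Their median log2 changes were 0.49, 0.69, 0.57 and 0.78, against 0.11, 0.16, 0.13 and 0.23 for all genes. Cpt1a, which carries long-chain fatty acids toward mitochondrial oxidation, was lower in all 4 comparisons, by -2.40, -1.49, -1.96 and -1.31, while the dehydrogenase gene Acadl was higher by 0.89, 0.93, 1.26 and 1.26. The other gene lower against fibroblast-like cells was Cpt2, named after its value was seen.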
